A study of Homo sapiens with 4 samples.

Results

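The annexin family was examined in CD133+ and CD133- cells of Huh7, an established human hepatocellular carcinoma line. The 10 members ANXA1, ANXA2, ANXA3, ANXA4, ANXA5, ANXA6, ANXA7, ANXA10, ANXA11 and ANXA13 were followed through all 19 probe sets that the platform annotation assigns to them alone, out of 54675 probe sets and 19775 named genes. The family was selected on the measured values of these same arrays, since ANXA3 is among the genes of largest difference between the populations, so the differences below are a description and were given no test. Huh7 cells had been sorted by flow cytometry into cells with CD133 on their surface, the product of PROM1, and cells without it, and each population was taken to be represented by 1 array. Both populations come from 1 line with no further treatment or genotype named in the labels, and they differ in the sort gate.

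Annexins are cytosolic proteins that bind membranes rich in acidic phospholipids such as phosphatidylserine when calcium rises. They share a conserved core of repeated calcium-binding domains and differ in the N-terminal tail, which carries the binding sites for partners such as S100 proteins. Members of the family act in vesicle traffic, membrane repair, plasminogen activation and the control of inflammation, and several are used as markers of epithelial and tumour cells.

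Each array was deposited as RMA values on the log2 scale and as MAS5 signals on a linear scale. The labels do not say outright that both come from the same hybridization. They differ only in the algorithm and name no repeated sort, so MAS5 and RMA values were taken as summaries of 1 hybridization per population and not as replicates. Without a repeated array no difference has a replicate error, and a fold change here compares 1 array with another. Differences are RMA log2 values of CD133+ minus CD133- unless MAS5 is named. For each gene the brightest probe set by mean RMA value stood for the gene, which counted as detected when the higher of its 2 values exceeded a floor of 4.86, the median of such higher values on the whole array. The corresponding MAS5 floor was 91.8. If the lower value fell under the floor, the floor replaced it and the fold is written "at least". Levels are not read as comparable between genes, since probe sets differ in their response. Only the choice of the 5 genes nearest to ANXA3 and the sums of marker signals use levels across genes.

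The arrays fitted the labels of the sort and of the cell line. PROM1 reached 10.49 (RMA) in CD133+ cells, against 5.33 in CD133- cells, the largest difference of the 12899 detected genes. All 7 hepatocyte markers examined, among them ALB and AFP, were detected, with a median difference of -0.06. Markers of other cells were measured beside them. The summed MAS5 signal of 5 blood markers was 13116 in CD133+ and 13873 in CD133- cells, and that of 5 endothelial markers was 347 in CD133+ and 339 in CD133- cells. LYZ alone gave most of the blood sum, with MAS5 signals of 12748 in CD133+ and 13466 in CD133- cells. The blood markers CD3E, CD14, LYZ and HBB and the endothelial markers PECAM1 and VWF were detected by RMA, none of them 2-fold different on that scale. VWF was at the RMA floor, with 4.89 in CD133+ and 4.87 in CD133- cells. The MAS5 signals of CD3E (62.3 in CD133+ and 28.3 in CD133- cells) and VWF (21.1 in CD133+ and 47.1 in CD133- cells) lay below the MAS5 floor. The leukocyte marker PTPRC and the endothelial markers CDH5, KDR and TEK were below the floor on both arrays. For 7 stromal markers the sum was 2818 in CD133+ and 1447 in CD133- cells. Of the 4 detected stromal markers, LUM and COL1A2 were at least 2-fold higher in CD133+ cells, COL1A1 differed by 0.04 and PDGFRB by -0.25, while COL3A1, DCN and ACTA2 were below the floor on both arrays, and the part of stromal-type expression in the annexin differences was not tested.

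Of the 10 annexins, 9 were detected. ANXA3 and ANXA13 were at least 2-fold higher in CD133+ cells with both values above the floor. ANXA1 was past 2-fold only in the values as measured, because its CD133- value lay below the floor. Among all 12899 detected genes, 1.65% were at least 2-fold higher as measured, 1.33% were so with values below the floor set to it, and 0.116% were at least 2-fold lower as measured. None of the 9 detected annexins was 2-fold lower. ANXA6 was the only detected member with a lower value in CD133+ cells, and the other 8 had higher values, 5 of them by less than 0.5. Of all detected genes 45.6% had a higher value in CD133+ cells. The median difference of the 9 was 0.23, against -0.01 over all detected genes, and it was 0.08 with the mean over the probe sets of each gene and 0.08 over the 7 members left without _x_at and _s_at probe sets. Since the members were chosen with these values known, nothing is read from the excess over the background. In these bulk samples, fewer cells that express a gene and less of its RNA per cell cannot be told apart.

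**Figure D1:**
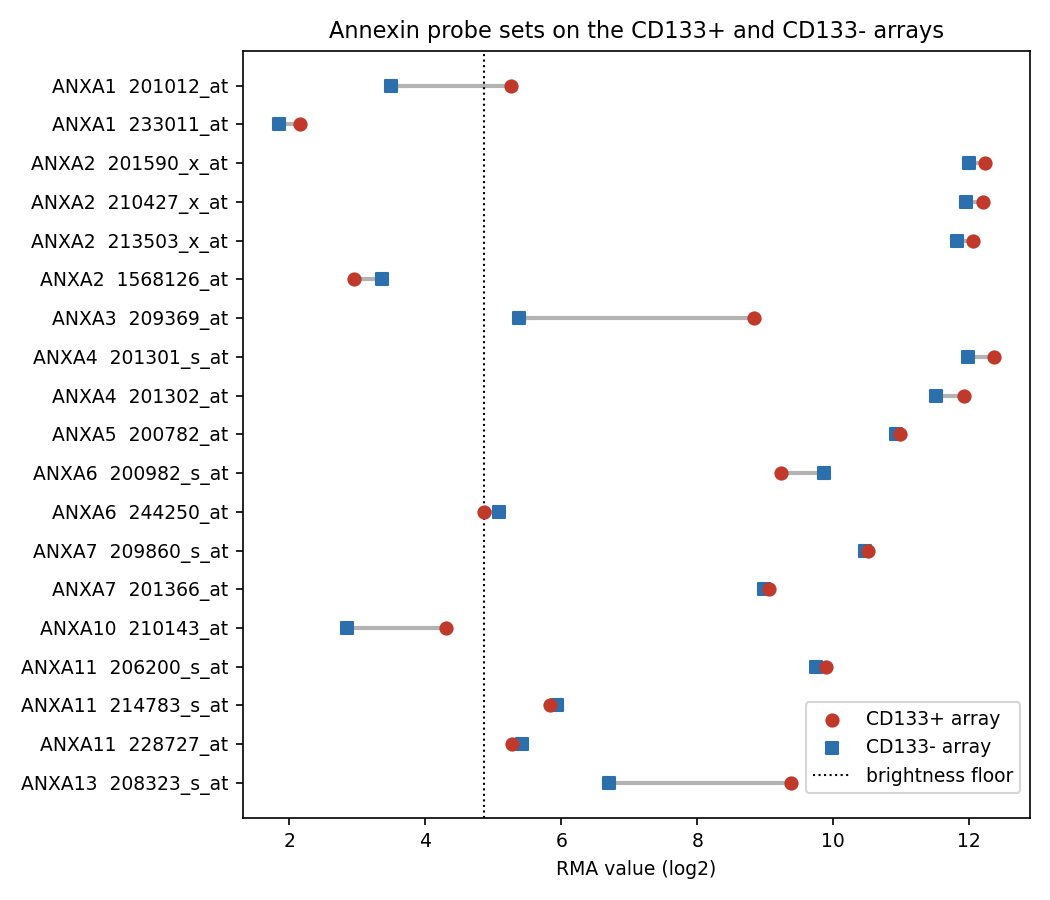
RMA values (log2, horizontal axis) of all 19 annexin probe sets, with the CD133+ array as a circle and the CD133- array as a square, joined by a line whose length is the difference. ANXA3, ANXA13, ANXA1 and ANXA10 have the widest gaps, ANXA10 entirely below the floor of 4.86 (dotted), and both ANXA6 probe sets have the circle left of the square, as do the dim ANXA2 probe set and the 2 dimmer ANXA11 probe sets.

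Sequence upstream of the transcription start is shown for ANXA3, ANXA1 and ANXA10, beside ANXA5, whose values hardly differed. ANXA1 and ANXA10 had higher values in CD133+ cells on both scales. The CD133- value of ANXA1 lay below the floor, and ANXA10 lay below the RMA floor on both arrays. The windows come from the RefSeq promoter table and cover the 250 bases before the start (GRCh38.p14, each printed 5′ to 3′ along the gene): chr4:78551520-78551769 on the + strand for ANXA3, chr9:73151615-73151864 on the + strand for ANXA1, chr4:168092287-168092536 on the + strand for ANXA10 and chr4:121696981-121697230 on the - strand for ANXA5. Capitals mark any match, on either strand, to the 8 motifs named in the paragraph after the sequences.
ANXA3: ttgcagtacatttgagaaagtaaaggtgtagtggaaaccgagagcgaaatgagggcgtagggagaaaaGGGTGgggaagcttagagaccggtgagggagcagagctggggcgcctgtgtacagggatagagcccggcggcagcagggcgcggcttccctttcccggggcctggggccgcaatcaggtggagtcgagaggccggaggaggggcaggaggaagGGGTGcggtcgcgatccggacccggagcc
ANXA1: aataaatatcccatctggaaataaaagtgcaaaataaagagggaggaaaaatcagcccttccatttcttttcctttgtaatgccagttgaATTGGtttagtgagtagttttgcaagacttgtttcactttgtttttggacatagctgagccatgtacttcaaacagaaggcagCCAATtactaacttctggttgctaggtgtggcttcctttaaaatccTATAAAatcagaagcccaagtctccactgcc
ANXA10: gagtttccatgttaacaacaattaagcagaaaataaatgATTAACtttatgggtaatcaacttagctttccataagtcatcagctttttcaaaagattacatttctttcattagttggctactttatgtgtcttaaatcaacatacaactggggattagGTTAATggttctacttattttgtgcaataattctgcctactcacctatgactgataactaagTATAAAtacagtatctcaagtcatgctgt
ANXA5: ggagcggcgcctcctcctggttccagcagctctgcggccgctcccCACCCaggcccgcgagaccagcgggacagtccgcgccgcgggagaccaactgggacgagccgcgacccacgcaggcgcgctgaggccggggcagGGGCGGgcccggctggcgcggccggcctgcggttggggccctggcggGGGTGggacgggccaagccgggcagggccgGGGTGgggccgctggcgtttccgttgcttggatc

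The motifs searched, in letters where N is any base, with the share of all 35116 promoter windows of this length that hold them, were the TATA box TATAAA (10.7%), the CCAAT box CCAAT (32%), the GC box GGGCGG (42.6%), the AP-1 site TGANTCA (6.57%), the HNF1 half-site GTTAAT (6.23%), the CACCC box CACCC bound by Krüppel-like factors (54.7%), the CRE half-site TGACG (21.2%) and the E-box CACGTG (6.34%). Matches were allowed to overlap, as CACCC does with GGGCGG or TGANTCA in some windows. The windows of ANXA1 and ANXA10 held no CG dinucleotide at all, as did 6.06% of windows, and had a GC content of 38.4% and 31.2%. Both carried TATAAA, at bases -31 to -26 in ANXA1 and -29 to -24 in ANXA10 relative to the start. TATAAA was not particular to them: it also lay at -31 to -26 in ANXA2 and in a window of ANXA11. In all, 4 of the 13 annexin windows held it. The ANXA1 window also held CCAAT at 2 places, and that of ANXA10 held GTTAAT at 2 places. The windows of ANXA3 and ANXA5 had a GC content of 64.0% and 78.8%, with 18 and 31 CG dinucleotides, against a median of 11 over all windows. ANXA3 had CACCC at 2 places and no other match, and 10 of the 13 annexin windows held CACCC. These matches describe letters in the windows only. In all, 9 of the 10 members, all but ANXA13, matched the table by symbol.

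ANXA3, a member that promotes angiogenesis in experimental systems and has been used as a marker in liver cancer, showed the largest RMA difference of the family. Its single probe set had an RMA value of 8.83 in CD133+ cells, against 5.38 in CD133- cells, a 10.96-fold difference that ranked the sixth highest of all detected genes. By MAS5 its signal was 3019 in CD133+ and 246 in CD133- cells, a 12.3-fold difference. Both values lay above the floor by either algorithm, so the fold is not written as a bound. The CD133- RMA value of 5.38 was nevertheless near the floor, so the size of the fold may still rest on a dim denominator. The 5 detected genes whose pair of RMA values lay nearest to that of ANXA3 were SLC7A7, a cationic amino acid transporter subunit, BEX5, the elastase inhibitor PI3 (elafin), the transmembrane mucin MUC13 and the serine protease PRSS23. Their differences spanned 2.44 for PRSS23 to 3.44 for SLC7A7. The likeness is a distance of 0.40 to 0.91 RMA units over the 2 arrays, in levels that also depend on the probe set.

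ANXA13, the annexin of the intestinal epithelium, a myristoylated member of which an isoform lies at the apical membrane, came next. Its RMA value was 9.37 in CD133+ cells, against 6.70 in CD133- cells, a 6.39-fold difference that ranked 18 from the top. The MAS5 signals were 3332 in CD133+ and 439 in CD133- cells, or 7.60-fold. The gene had 1 probe set, of the kind (_s_at) that can match several transcripts.

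ANXA1, the glucocorticoid-induced annexin that signals through formyl peptide receptors to limit inflammation, was near the floor. Its main probe set had an RMA value of 5.26 in CD133+ cells, against 3.49 in CD133- cells. Since the CD133- value lay below the floor, CD133+ cells were at least 1.33-fold higher, with a difference of 1.77 in the values as measured. By MAS5 the signals were 220 in CD133+ and 43.4 in CD133- cells, at least 2.39-fold. A further ANXA1 probe set was below the floor on both arrays, with values of 2.16 in CD133+ and 1.84 in CD133- cells. The receptor genes FPR1, FPR2 and FPR3 were each below the floor on both arrays.

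ANXA10, which is known from gastric epithelium and lacks most of the calcium-binding sites of its relatives, depended on the algorithm. By RMA it was not detected, with values of 4.31 in CD133+ and 2.85 in CD133- cells, so that no fold is given. By MAS5 its signal was 127 in CD133+ cells, above the floor, against 5.04 in CD133- cells, far below it. Against the floor the CD133+ cells were at least 1.38-fold higher by MAS5, and the log2 difference of 4.66 in the values as measured rests on the CD133- signal below it. The direction was that of ANXA3, ANXA13 and ANXA1 on both scales, and the size is not known.

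**Figure D2:**
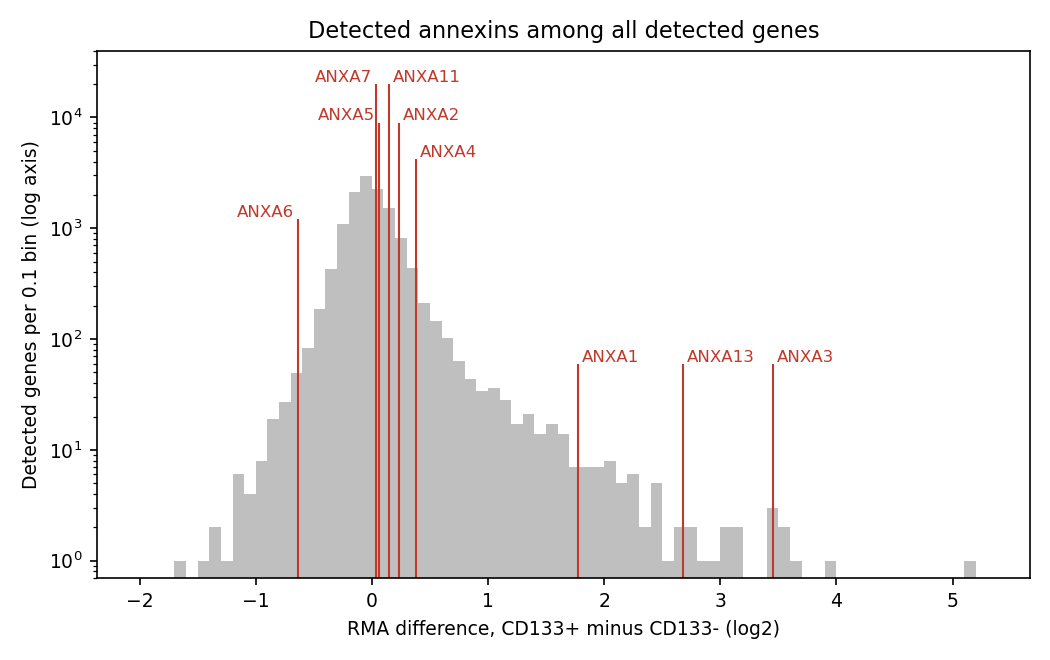
Histogram of the RMA difference (CD133+ minus CD133-, log2) over the 12899 detected genes, with a log count axis. Lines mark the 9 detected annexins, and their height has no meaning. ANXA13 and ANXA3 lie in the right tail at 2.68 and 3.45, ANXA1 is drawn at 1.77 as measured, with its CD133- value below the floor, and ANXA6 lies left of the bulk at -0.63.

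ANXA2 and ANXA4, abundant epithelial annexins, were slightly higher in CD133+ cells on the probe sets that were bright. ANXA4, a membrane organiser of secretory epithelia, had RMA values of 12.37 in CD133+ and 11.98 in CD133- cells on its main probe set. Its other probe set gave 11.92 in CD133+ and 11.52 in CD133- cells, so that the differences were 0.38 and 0.40, and 10.3% of detected genes differed by at least 0.38 in either direction. ANXA2, which with S100A10 forms a tetramer at the plasma membrane that binds plasminogen and its activator, had values of 12.23 in CD133+ and 12.00 in CD133- cells on its main probe set. The 3 bright ANXA2 probe sets differed by 0.23, 0.23 and 0.25. All 3 are of the kind (_x_at) that can take up related transcripts, and ANXA2 has processed pseudogenes, so signal of the gene and of its copies may be mixed. A probe set of the pseudogene ANXA2P2 differed by 0.25 as well. The remaining ANXA2 probe set was below the floor, at 2.95 in CD133+ and 3.37 in CD133- cells, and a probe set that the annotation gives to both SNU13 and ANXA2 differed by -0.19.

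For comparison, 16955 same-gene pairs, with each probe set above the floor, gave a within-gene SD of 0.17 for the difference of a probe set. This is a technical spread inside the same hybridizations and leaves out the variation between sorts and cultures. The ANXA4 differences of 0.38 and 0.40 were above this SD. The ANXA6 differences of -0.63 and -0.22 were larger in size than this SD, but lay 0.41 apart. ANXA3 and ANXA13 are not set against it, since each has 1 probe set and the family was selected on the ANXA3 value. The ANXA2 difference of 0.23 was only slightly above the SD, and 24.8% of detected genes differed by at least as much in either direction. ANXA1 is not set against this SD, since its CD133- value lay below the floor.

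ANXA6, the annexin with a duplicated core, which links membranes to the actin cytoskeleton and to the control of Ras, ran the other way. Its main probe set had an RMA value of 9.23 in CD133+ cells, against 9.86 in CD133- cells, which was 1.55-fold lower in CD133+ cells and ranked 99 from the bottom of all detected genes. At least 1.5-fold lower were 1.01% of detected genes. By MAS5 the signals were 3639 in CD133+ and 5253 in CD133- cells, 1.44-fold lower in CD133+ cells. Its other probe set, at the floor, had RMA values of 4.86 in CD133+ and 5.08 in CD133- cells, a difference of -0.22, with MAS5 signals of 78.6 in CD133+ and 112 in CD133- cells. Both probe sets had the same direction by both algorithms, and the RMA differences lay 0.41 apart, the widest gap of the 5 members with several probe sets above the floor.

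ANXA5, ANXA7 and ANXA11 hardly differed. ANXA5, the phosphatidylserine binder used to label dying cells, had RMA values of 10.99 in CD133+ and 10.92 in CD133- cells, and 72.7% of detected genes differed by at least as much. ANXA7 and ANXA11 have long N-terminal tails that bind the calcium sensors encoded by PDCD6 and, for ANXA7, SRI. ANXA7 had values of 10.51 in CD133+ and 10.47 in CD133- cells, and its other probe set 9.06 in CD133+ and 8.98 in CD133- cells. ANXA11 had values of 9.89 in CD133+ and 9.75 in CD133- cells on its main probe set, a difference of 0.14. Its 2 dimmer probe sets differed by -0.10 and -0.14, so the ANXA11 probe sets had no common direction. With no replicate, a small difference between the populations in these genes cannot be told from none.

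**Figure D3:**
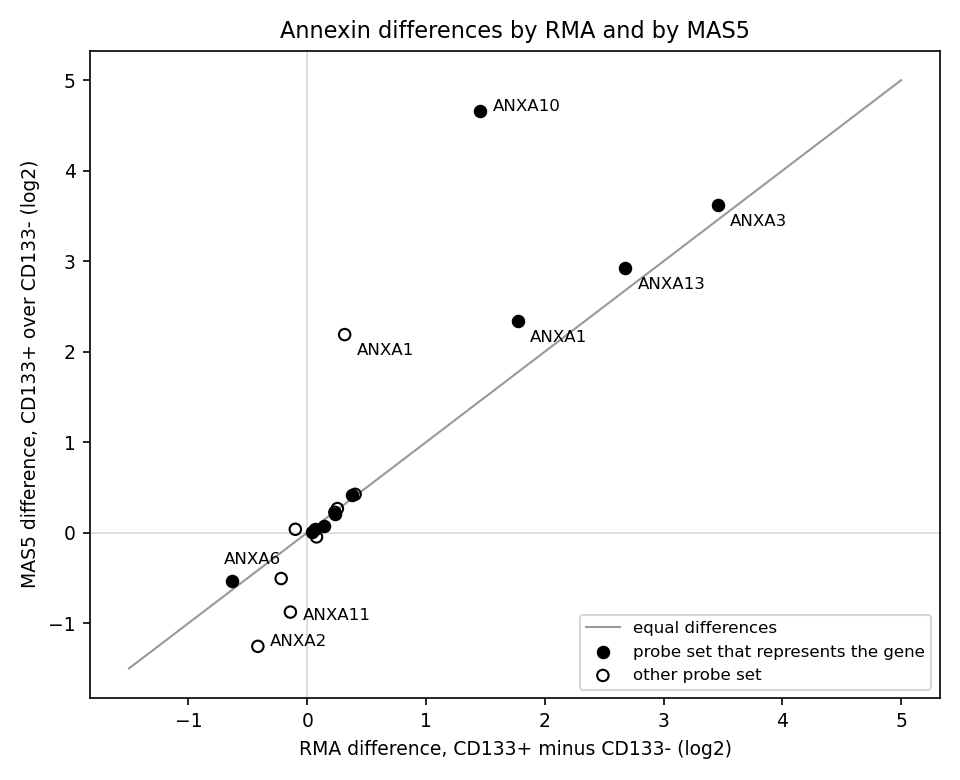
Difference of each annexin probe set by RMA (horizontal, log2) and by MAS5 (vertical, log2), with filled points for the probe set that represents its gene and open points for the others. Most points lie near the line of equal differences, and ANXA10, with 1.46 by RMA and 4.66 by MAS5, lies farthest from it.

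MAS5 placed all 10 members above its floor, 9 of them higher and 1 lower in CD133+ cells. The share of all genes above the MAS5 floor that were higher was not computed. Their median MAS5 difference was 0.004 (log2), against 0.31 for the 10 members, which were chosen with these values known. With signals below the floor set to it, 3 members were at least 2-fold higher, ANXA3, ANXA13 and ANXA1, where 2.55% of the 12251 genes above the MAS5 floor were. In the signals as measured ANXA10 was past 2-fold as well, where 4.47% of genes were at least 2-fold higher and 1.71% at least 2-fold lower. For the representing probe sets of the 9 members detected by RMA, the direction was the same by both algorithms. Both were taken to start from the same hybridizations, so this is no independent check.

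Annexin probe sets outside the 10 members gave small differences. ANXA9, an epithelial member with degenerate calcium sites, had RMA values of 7.06 in CD133+ and 6.78 in CD133- cells on its brighter probe set, and its other probe set differed by 0.07. ANXA8 and its copy ANXA8L1 share their probe sets and cannot be told apart, and the brighter of these had values of 5.89 in CD133+ and 5.78 in CD133- cells.

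Partners of the annexins were followed in lists by role. Of 6 detected S100 and EF-hand partners 5 had higher values in CD133+ cells, where 45.6% of all detected genes had. Of the 6, 1 was at least 2-fold higher, where 1.65% of all detected genes were. The median difference was 0.46 against -0.01 over all detected genes. The list was chosen with earlier results of these data known, so nothing is read from the excess. S100A6 (calcyclin), which binds ANXA2, ANXA6 and ANXA11, had RMA values of 8.63 in CD133+ and 7.09 in CD133- cells and was 2.92-fold higher. S100A11, the partner of ANXA1, was 1.80-fold higher, with values of 10.26 in CD133+ and 9.42 in CD133- cells. S100A10, the partner of ANXA2, had values of 12.81 in CD133+ and 12.35 in CD133- cells, and its other probe set differed by 0.69. SRI (sorcin) differed by 0.41 and PDCD6 (ALG-2), which was the lowest of the list, by -0.05, although further bright PDCD6 probe sets gave -0.20 and -0.59.

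Genes of plasminogen activation went both ways, and none of 5 detected members reached 2-fold. PLG, the plasminogen made by hepatocytes, was lowest with values of 9.14 in CD133+ and 10.04 in CD133- cells, a difference of -0.90. SERPINE2, a protease inhibitor, was highest with 0.58, and the list had a median of 0.04. In the membrane repair list 2 of 12 detected genes were at least 2-fold higher, where 1.65% of all detected genes were. None was 2-fold lower, and the median was 0.02. CAPN2, the large subunit of a calpain protease, had values of 6.12 in CD133+ and 4.41 in CD133- cells and was at least 2.39-fold higher, while its other probe set above the floor differed by 0.09. MYOF (myoferlin), a ferlin of membrane repair and fusion, had values of 6.23 in CD133+ and 4.73 in CD133- cells and was at least 2.60-fold higher. VPS4B, an ATPase of the ESCRT machinery, was lowest with -0.17.

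Among 23 detected copines, synaptotagmins and other C2-domain proteins, which bind membranes through a calcium-dependent module unrelated to the annexin fold, 1 was at least 2-fold higher and none was 2-fold lower, with a median of 0.05. This was SYTL5, a synaptotagmin-like Rab27 effector, with values of 7.56 in CD133+ and 6.18 in CD133- cells, or 2.60-fold. SYTL3 was lowest with -0.35. Of 10 detected flippases, scramblases and their subunits, which set the exposure of phosphatidylserine, none reached 2-fold and the median was 0.06. TMEM30B, a flippase subunit, was highest with 0.97, and ATP8A1, a flippase, was lowest with -0.34. The counts of all these lists come from the arrays that gave the annexin values and were not tested against the background of 1.65%.

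**Figure D4:**
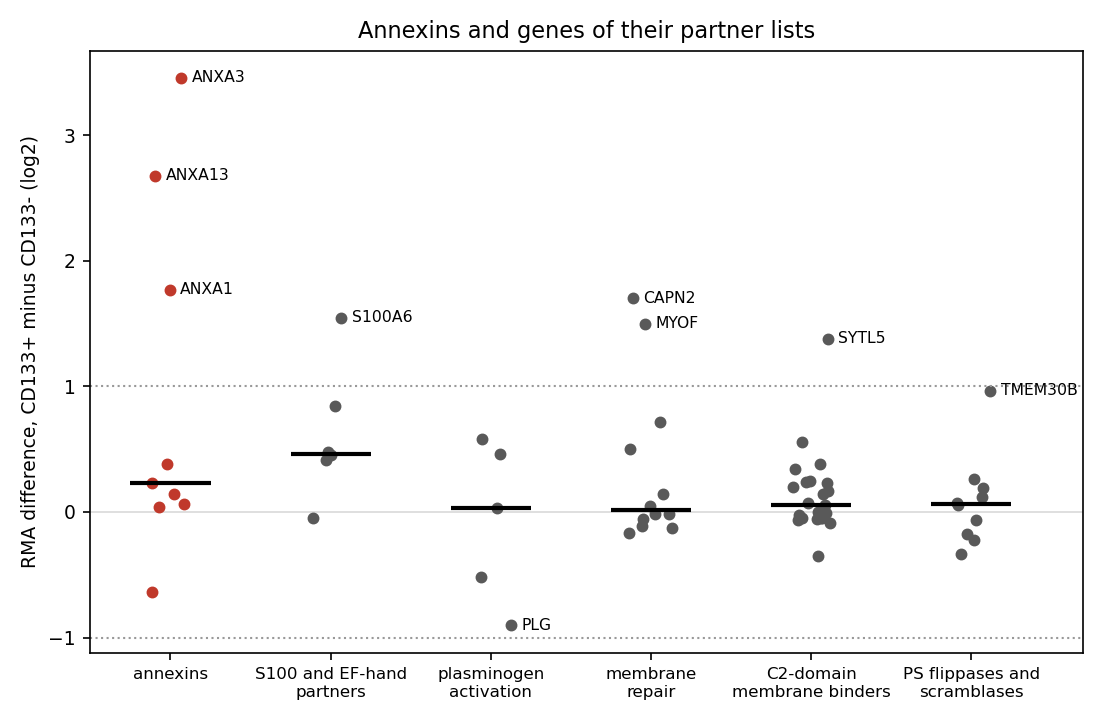
RMA difference (CD133+ minus CD133-, log2, vertical axis) of the detected annexins and of the detected genes in 5 partner lists (PS, phosphatidylserine), 1 point per gene, with a bar at the median and dotted lines at 2-fold. The S100 and EF-hand partners have the highest median, 0.46, and ANXA3 and ANXA13 lie above every gene of the partner lists. The ANXA1, CAPN2 and MYOF points rest on CD133- values below the floor.

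Genes next to the annexins on the chromosome were set beside them, a comparison added after the annexin values were seen. For each member the 3 nearest protein-coding genes on either side that have a probe set were taken, in the gene order of GRCh38.p14. Of these 60 genes 43 were detected, and 1 was at least 2-fold higher and none 2-fold lower, or 2.33% higher against 1.65% of all detected genes. The exception was BMP2K, an AAK-family kinase gene that follows ANXA3 on chromosome 4. BMP2K had RMA values of 6.75 in CD133+ and 5.60 in CD133- cells, a 2.21-fold difference, and its further bright probe sets gave 0.30 and 0.51. FRAS1, on the other side of ANXA3, differed by 0.14. Next to ANXA13, ANXA1 and ANXA6 no detected neighbour reached 2-fold, with ranges of -0.11 to 0.50, -0.02 to 0.38 and -0.34 to 0.15.

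**Figure D5:**
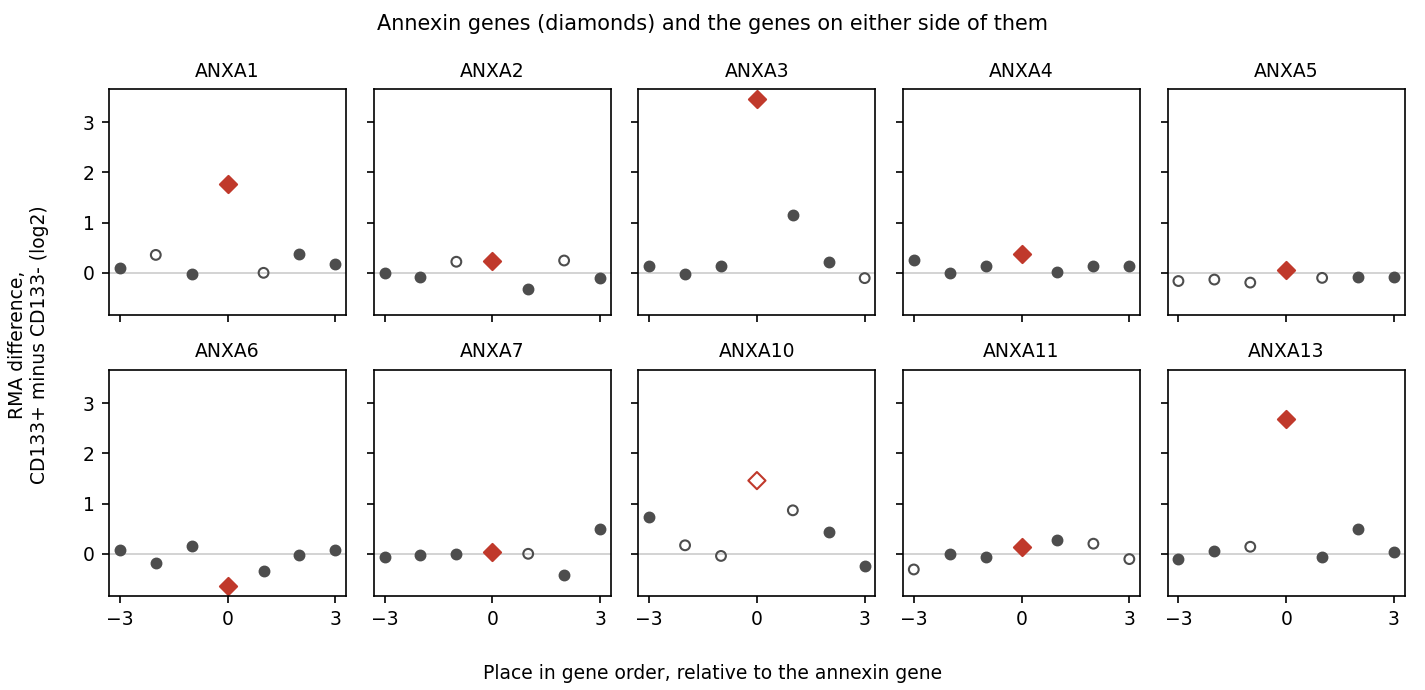
RMA difference (CD133+ minus CD133-, log2, vertical axis) of each annexin gene (diamond, place 0) and of the 3 genes on either side of it in gene order (circles, open where the gene was not detected). The neighbours lie between -0.42 and 0.87 apart from BMP2K, at 1.15 beside ANXA3, and the ANXA10 diamond is open because it lay below the RMA floor.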

How the data were processed

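For Huh7 CD133+ and CD133- cells alike the authors deposited MAS5 signal intensity (linear) in 1 sample and RMA log2 values in another, per the labels. These were taken as summaries of 1 array per population, which the labels do not state outright. The submitters' processing notes list MAS5, RMA and GCOS but no version. The deposited MAS5 intensity values have a trimmed mean (2% off each end) of 500.1 on both arrays, a global scaling. RMA equalizes the distributions, so a global shift between populations cannot be seen. Detection calls and scan dates were not used here.

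From these values, differences were computed with pandas 2.3.3 and numpy 2.4.6. Symbols come from the platform annotation, updated through Entrez gene numbers to GRCh38.p14, and 41097 probe sets name 1 gene. Promoter windows come from RefSeq. The code that calls 2-fold genes was run on simulated data for the RMA comparison, where all 200 genes changed 4-fold among 12921 detected genes were recovered. The changed genes were all well above the floor, and the simulated noise was smaller than the within-gene SD of 0.17. Full recovery therefore checks the code only, and does not cover genes near the floor or close to 2-fold. No test between the populations was run, since each was taken to have a single array, and the number of arrays limits the precision. The members, partner lists, floor, fold and alternatives were chosen with earlier results of these data known. The text names all members, in each partner list the genes at least 2-fold different and the extremes, the partners S100A10, S100A11, S100A6, PDCD6 and SRI, and the 5 genes nearest to ANXA3. Alternatives were MAS5, the mean over probe sets, probe sets not marked _x_at or _s_at, other floors, other folds and centring.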

Additional observations from a re-analysis of the deposited data

How the results depend on the processing

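Member differences moved by more than the within-gene SD of 0.17 in 8 cases, all with MAS5, with the mean over probe sets or without _x_at and _s_at probe sets. The other floors leave a gene's difference as it is, and centring shifts all by the same amount. The count of annexins at least 2-fold higher in the values as measured was 3, and 4 by MAS5 or without a floor, where ANXA10 joined. It was 2 with the floor at the 75th percentile, where ANXA1 dropped out, 2 on probe sets not marked _x_at or _s_at, where ANXA13 had none, and 2 at 4-fold. Of all genes kept, 1.65% were at least 2-fold higher in the main setting, 4.47% by MAS5 and 1.16% without a floor. The share was 1.46% at the 75th percentile floor and 1.48% on probe sets not marked _x_at or _s_at. For 4-fold no share was computed. None of the annexins was 2-fold lower in any of these settings. At 1.5-fold 1 was lower, ANXA6, where 1.01% of detected genes were. With the mean over probe sets the differences were 1.04 for ANXA1, -0.43 for ANXA6 and -0.03 for ANXA11, and without _x_at and _s_at probe sets ANXA11 was at -0.14 and ANXA6 at -0.22. By MAS5 the difference was 2.93 for ANXA13, 2.34 for ANXA1 and 4.66 for ANXA10. The median of the plasminogen list was -0.52 without _x_at and _s_at probe sets and -0.52 at the higher floor, with 3 members left each time, and that of the C2-domain list was 0.22 by MAS5. The annexin median of 0.23 became 0.08 when probe sets were averaged, and also 0.08 once _x_at and _s_at probe sets were left out. The averaged median is the ANXA2 mean, which takes in its probe set below the floor, at -0.42. The other is the ANXA7 value, in a set that no longer holds ANXA2 or ANXA13. For the remaining shifts the cause was not tested. No paired analysis was possible because each population has 1 array. Signal near the floor limits ANXA1 and ANXA10, and the CD133- value of ANXA3 was near the floor as well. No alternative supplies the missing replicate.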
